A study of Sus scrofa with 18 samples.

Results

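NQO1, TXNRD1, ME1, CAT, GPX3 and MT1A are 6 pig genes for targets of the transcription factor NRF2 and for proteins that remove oxidants or bind metals. They were chosen by gene symbol, after their levels on these same arrays had been seen, and every probe set whose only annotated symbol is one of the 6 was taken. That gave 9 probe sets for 6 of the 6765 named genes, out of 10069 probe sets with 1 symbol and 23999 probe sets tested. NQO1, CAT, GPX3 and MT1A had 1 probe set each, ME1 had 2 and TXNRD1 had 3, and where a gene had several, the one with the highest mean over all arrays stands for it.

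The study profiled pig kidneys on 18 Affymetrix arrays to follow ischemia-reperfusion injury in transplantation and treatment with carbon monoxide (CO), a gas that heme oxygenases also make in the body. The groups were transplanted kidneys treated with CO at 4 h (n = 4, donors 1 to 4), transplanted untreated kidneys at 4 h (n = 4, donors 1 to 4), transplanted kidneys treated with CO at 24 h (n = 4, donors 5 to 8), transplanted untreated kidneys at 24 h (n = 4, donors 5 to 8) and naive kidneys that were not transplanted (n = 2). Each donor number thus stands once in the CO group and once in the untreated group of its time. Breed, age and sex of the pigs, and whether donor, graft or recipient received CO, are not given in the sources used here, and the labels of the CO arrays give air as treatment although their title and source name CO. Values are log2 levels from RMA, in which a difference of 1 is a doubling, and levels of different probe sets are not compared with each other.

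NRF2 is held low in unstressed cells by KEAP1, which marks it for breakdown. Oxidants and electrophiles modify KEAP1, NRF2 then builds up and switches on genes that carry antioxidant response elements, among them NQO1, TXNRD1 and ME1. NQO1 reduces quinones, TXNRD1 is the cytosolic selenoenzyme that recycles thioredoxin with NADPH, and ME1 is the cytosolic malic enzyme that makes NADPH. CAT breaks down hydrogen peroxide in peroxisomes, GPX3 is the glutathione peroxidase that proximal tubule cells secrete into plasma, and MT1A is a metallothionein that binds zinc and copper. Blood flow returning to an ischemic kidney is a known source of reactive oxygen, and the proximal tubule is rich in peroxisomes.

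The 6 genes took different courses after transplantation. NQO1 was high at 24 h and not at 4 h. TXNRD1 was already high at 4 h on 7 of 8 arrays and still high at 24 h, and ME1 stood highest in the CO kidneys at 4 h. CAT, GPX3 and MT1A were lower at 24 h than in naive kidneys. All these contrasts with naive kidneys and between times had been seen when the genes were chosen, so they are described here with no p-value.

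**Figure D1:**
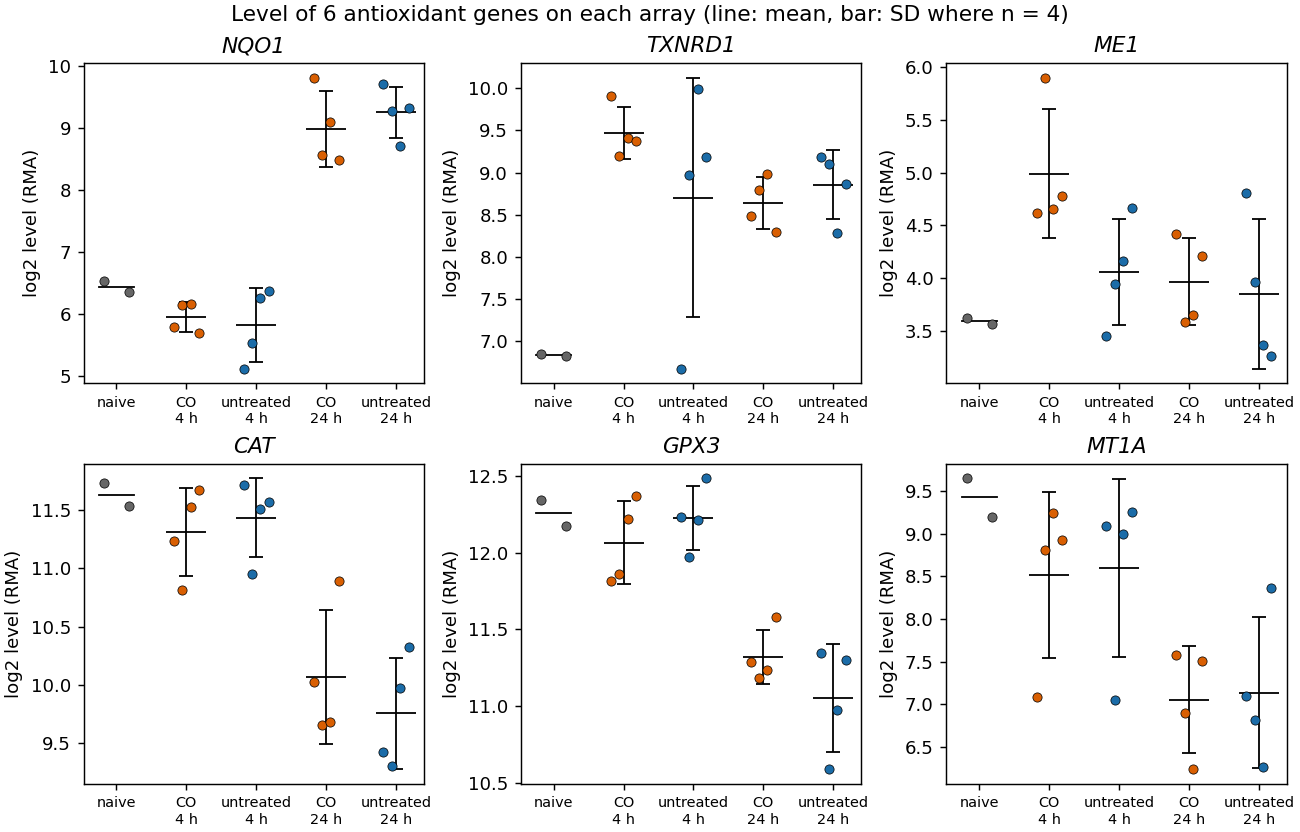
Log2 level (y axis, RMA) of the probe set standing for each of the 6 genes on every array, by group (x axis). Points are arrays, the line is the group mean and the bar the SD where n = 4. NQO1 exceeds 8.4 on all 8 arrays at 24 h and stays under 6.6 on the 8 arrays at 4 h and both naive arrays.

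NQO1, which reduces quinones without releasing semiquinone radicals, had levels of 5.80, 6.15, 6.15 and 5.69 in CO kidneys and 5.12, 5.53, 6.26 and 6.37 in untreated kidneys at 4 h (donors 1 to 4). At 24 h it had 9.81, 8.57, 9.09 and 8.48 in CO kidneys and 9.72, 9.27, 8.71 and 9.32 in untreated kidneys (donors 5 to 8), and the naive kidneys had 6.53 and 6.35. All 8 arrays at 24 h were above all others, and the 4 CO arrays at 4 h were all below both naive arrays, while 1 untreated array at 4 h lay between the naive arrays. The difference from naive kidneys at 24 h was 2.55 ± 0.38 in CO kidneys and 2.82 ± 0.38 in untreated kidneys (log2, ± SE from limma), or 5.86-fold and 7.04-fold. Of the tested probe sets, 0.346% and 0.338% were higher by more in these contrasts, which were in view when NQO1 was chosen. Between times, NQO1 was 3.04 ± 0.31 higher at 24 h than at 4 h in CO kidneys and 3.43 ± 0.31 higher in untreated kidneys, 8.23-fold and 10.8-fold.

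TXNRD1 had levels of 9.91, 9.19, 9.41 and 9.37 in CO kidneys at 4 h (donors 1 to 4) and 6.68, 8.97, 9.99 and 9.18 in untreated kidneys at 4 h. At 24 h it had 8.49, 8.79, 8.98 and 8.30 in CO kidneys and 9.18, 9.10, 8.29 and 8.87 in untreated kidneys (donors 5 to 8), and the naive kidneys had 6.85 and 6.83. Of the 16 transplanted arrays, 15 were above both naive arrays, and the untreated kidney of donor 1 at 4 h was below them. The difference from naive kidneys was 2.63 ± 0.58 in CO kidneys and 1.86 ± 0.58 in untreated kidneys at 4 h, and 1.80 ± 0.58 and 2.02 ± 0.58 in CO and untreated kidneys at 24 h. Without the untreated array of donor 1, the untreated difference at 4 h was 2.54. That array also resembled the naive arrays over all probe sets, with a mean correlation of 0.981 with them and 0.956 with the other arrays of its group. Unlike NQO1, TXNRD1 was not higher at 24 h than at 4 h beyond its spread, with a difference of -0.83 ± 0.47 in CO kidneys and 0.15 ± 0.47 in untreated kidneys. In CO kidneys all arrays at 24 h were below all arrays at 4 h. The error is shared by all groups, and the SD was 1.42 in untreated kidneys at 4 h and 0.31 in CO kidneys at either time.

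The 3 probe sets of TXNRD1 did not follow one course. A second probe set, for alternative transcripts of the same target cluster, tracked the standing one with r = 0.99 over 18 arrays, and was higher than in naive kidneys by 2.70 and 1.94 in CO and untreated kidneys at 4 h, and by 1.59 and 1.87 at 24 h. In CO kidneys this second probe set differed by -1.10 between 24 h and 4 h, also without overlap. The remaining probe set, for another cluster annotated to TXNRD1, ranged from 4.14 to 5.58 with naive kidneys at 4.71 and 5.16, differed from naive kidneys by -0.15 to 0.28 in the 4 groups, and had r of -0.29 and -0.35 with the others. The statements on TXNRD1 hold for the first pair only, and these share their target and are no independent readings.

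**Figure D2:**
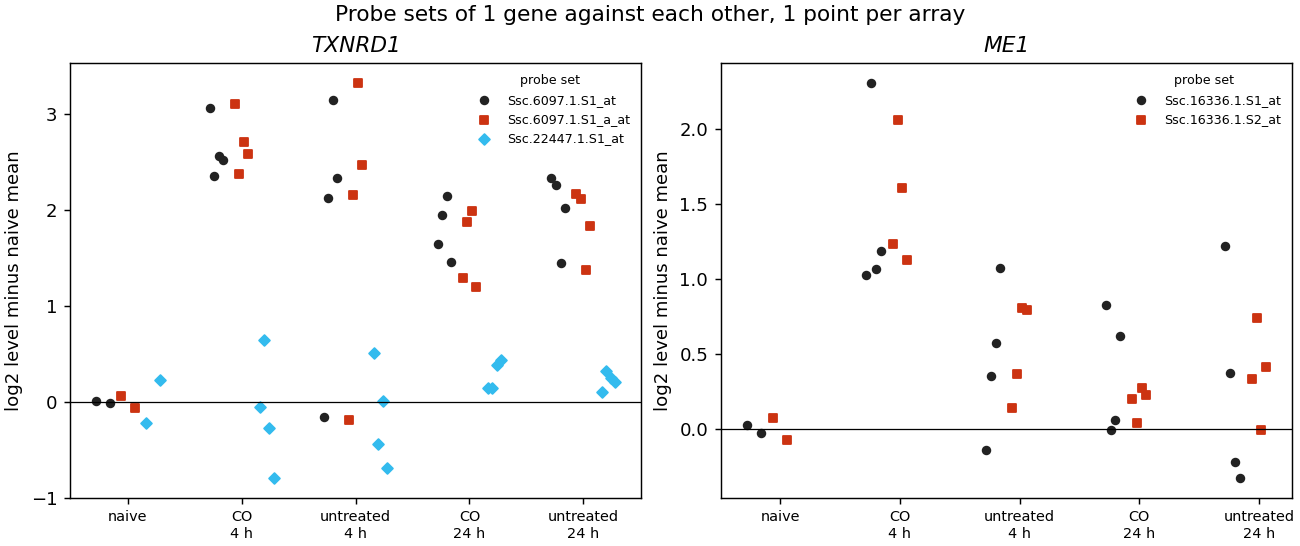
Log2 level minus the naive mean (y axis) of every probe set of TXNRD1 and ME1 on each array, by group (x axis). Black circles are the standing probe set and red squares the second of its cluster. The TXNRD1 probe set of the other cluster (blue diamonds) stays within -0.80 and 0.65 of the naive mean, while both others exceed it by 1.2 or more on 15 of 16 transplanted arrays, and both ME1 probe sets are highest in CO kidneys at 4 h.

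ME1 had levels of 4.62, 5.90, 4.66 and 4.78 in CO kidneys at 4 h (donors 1 to 4), against 3.46, 3.95, 4.17 and 4.67 in untreated kidneys. At 24 h it had 4.42, 3.58, 3.65 and 4.21 in CO kidneys and 4.81, 3.97, 3.37 and 3.27 in untreated kidneys (donors 5 to 8), and the naive kidneys had 3.62 and 3.57. All 4 CO arrays at 4 h were above both naive arrays, and the other groups overlapped the naive range. ME1 was 1.39 ± 0.43 higher in CO kidneys at 4 h than in naive kidneys, 2.63-fold, and the other groups differed from naive kidneys by 0.26 to 0.47 with the same error. Its second probe set was dim, at 2.34, 3.16, 2.71 and 2.23 in CO kidneys at 4 h, against 1.24, 1.47, 1.91 and 1.90 in untreated kidneys. It lay below the background of 1.61, the 95th percentile of 17 tag control probe sets, in both naive kidneys (1.18 and 1.03) and in all 4 CO kidneys at 24 h, so its difference between CO kidneys at 4 h and naive kidneys is a bound of at least 2.00-fold higher.

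CAT had levels of 11.24, 10.81, 11.53 and 11.68 in CO kidneys and 11.72, 10.95, 11.51 and 11.57 in untreated kidneys at 4 h (donors 1 to 4). At 24 h it had 10.02, 9.66, 9.68 and 10.90 in CO kidneys and 9.42, 9.30, 9.97 and 10.33 in untreated kidneys (donors 5 to 8), and the naive kidneys had 11.73 and 11.53. All arrays at 24 h were below both naive arrays, the arrays at 4 h overlapped them, and the CO groups of both times overlapped through donors 2 and 8. The difference from naive kidneys at 24 h was -1.57 ± 0.35 in CO kidneys and -1.88 ± 0.35 in untreated kidneys, 2.97-fold and 3.68-fold lower. At 4 h it was -0.32 and -0.20 with the same error.

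GPX3 had levels of 11.81, 11.86, 12.22 and 12.37 in CO kidneys and 12.23, 11.97, 12.21 and 12.48 in untreated kidneys at 4 h (donors 1 to 4). At 24 h it had 11.29, 11.19, 11.23 and 11.58 in CO kidneys and 11.35, 10.59, 10.97 and 11.30 in untreated kidneys (donors 5 to 8), and the naive kidneys had 12.34 and 12.17. The 8 arrays at 24 h were all below the other 10. The difference from naive kidneys at 24 h was -0.93 ± 0.22 in CO kidneys and -1.20 ± 0.22 in untreated kidneys, 1.91-fold and 2.30-fold lower, and at 4 h it was -0.19 and -0.03 with the same error.

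MT1A had levels of 7.08, 8.81, 9.25 and 8.92 in CO kidneys and 9.09, 7.05, 8.998 and 9.26 in untreated kidneys at 4 h (donors 1 to 4). At 24 h it had 7.57, 6.90, 6.23 and 7.51 in CO kidneys and 7.10, 6.81, 6.27 and 8.36 in untreated kidneys (donors 5 to 8), and the naive kidneys had 9.65 and 9.20. All arrays at 24 h were below both naive arrays, while at 4 h 1 array of each group, from different donors, stood near the levels of 24 h. The difference from naive kidneys at 24 h was -2.38 ± 0.67 in CO kidneys and -2.30 ± 0.67 in untreated kidneys, 5.19-fold and 4.91-fold lower, and at 4 h it was -0.91 and -0.83 with the same error. The ending _s_at marks probes that can match several transcripts, so this probe set may also read near-identical metallothioneins. A probe set annotated to both MT1A and MT3 was left out by the choice of single symbols and went the other way, at 4.65 to 5.77 on the 16 transplanted arrays and 4.19 and 4.37 on the naive arrays. It differed from naive kidneys by 1.16 ± 0.22 and 0.86 ± 0.22 in CO and untreated kidneys at 4 h and by 1.06 ± 0.22 and 0.89 ± 0.22 at 24 h, and was called higher in all of these but untreated kidneys at 4 h. The probe set standing for MT3 alone fell at 24 h in CO and untreated kidneys, as given below. The shared probe set thus ran against those of both its annotated genes at 24 h.

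**Figure D3:**
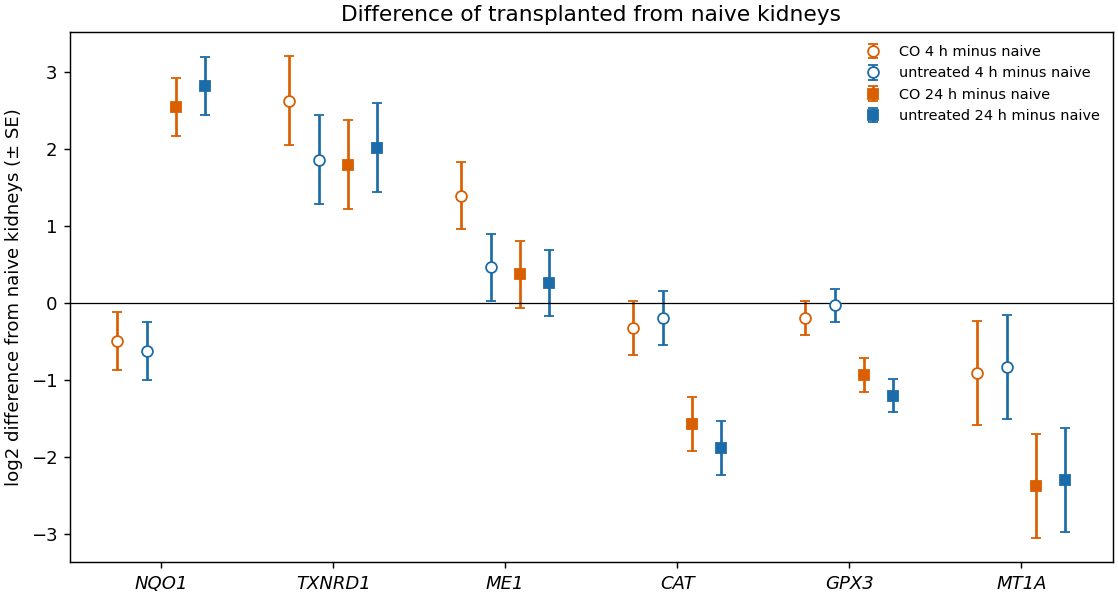
Difference of each transplanted group from naive kidneys (y axis, log2, points; bars are ± SE from limma) for the probe set standing for each gene (x axis). Circles are 4 h and squares 24 h, orange is CO and blue untreated; NQO1 sits at -0.49 and -0.62 at 4 h and at 2.55 and 2.82 at 24 h.

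The order of the group means repeated these courses. NQO1 was ordered untreated 24 h, CO 24 h, naive, CO 4 h and untreated 4 h from high to low, and the arrays of untreated and CO kidneys overlapped at either time. TXNRD1 was ordered CO 4 h, untreated 24 h, untreated 4 h, CO 24 h and naive, with overlap between untreated 24 h and untreated 4 h and between untreated 4 h and CO 24 h. CAT and GPX3 were ordered naive, untreated 4 h, CO 4 h, CO 24 h and untreated 24 h, and only the step of GPX3 from CO 4 h to CO 24 h separated neighbours without overlap. MT1A had naive, untreated 4 h, CO 4 h, untreated 24 h and CO 24 h, with overlap at every step, as had the standing probe set of ME1 in the order CO 4 h, untreated 4 h, CO 24 h, untreated 24 h and naive.

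Calls at a Benjamini-Hochberg adjusted p under 0.05 over all 23999 probe sets (limma, two-sided) are counted here only to place the genes, since these contrasts were in view when they were chosen. Against naive kidneys, CO 4 h had 2 of the 6 called, TXNRD1 and ME1, both higher, where 6.84% of all probe sets were called higher and 6.72% lower. Untreated 4 h had 0 of the 6 called, where limma called 0.942% of all probe sets higher and 0.563% lower, and 4973 of 23999 had an unadjusted p under 0.05. CO 24 h had NQO1 called higher and CAT, GPX3 and MT1A lower, with 5.75% of all probe sets called higher and 5.93% lower. Untreated 24 h had the same 4 and TXNRD1 called, with 6.79% of all probe sets called higher and 7.77% lower. Between times, NQO1 was called higher and CAT and GPX3 lower at 24 h in both CO kidneys (10.2% of all probe sets higher, 7.44% lower) and untreated kidneys (5.15% and 4.57%). Nothing is read from these counts, and p-values here measure only the spread between these arrays.

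These calls changed when 1 of the 2 naive arrays was left out and when array batch was fitted. The share of all probe sets called in these settings is not given, so the changes cannot be set against the whole array. Without either naive array, 0 genes were called at 4 h in CO kidneys, 1 at 24 h in CO kidneys and 3 at 24 h in untreated kidneys. Without the CO array of donor 1, 2 or 3, 1 was called at 4 h in CO kidneys, and without the untreated array of donor 5 or 6, 3 were called at 24 h in untreated kidneys. Without the untreated array of donor 1, TXNRD1 was called in untreated kidneys at 4 h. Array batches, read from the date part of the array names, split the times: batch 1 holds 7 arrays and batch 2 holds 4, with the naive arrays, all arrays of 4 h and the untreated array of donor 5, and batches 3 and 4 hold the 7 other arrays of 24 h. With batch as a fixed block, 0 and 1 of the 6 were called at 24 h in CO and untreated kidneys, the 1 being NQO1, and 0 between times. NQO1 then differed from naive kidneys by 3.36 and 3.33, TXNRD1 by 2.18 and 2.34, CAT by -1.61 and -1.94, MT1A by -1.997 and -1.96, GPX3 by -0.36 and -0.77 and ME1 by 1.58 and 1.02. From 4 h to 24 h, NQO1 then differed by 3.87 and 3.97, TXNRD1 by -0.44 and 0.48 and CAT by -1.15 and -1.61. MT1A differed by -0.90 and -0.94, GPX3 by -0.10 and -0.67 and ME1 by 0.09 and 0.46. Without the block, GPX3 differed by -0.74 and -1.17 and ME1 by -1.02 and -0.21 between times. With the block, differences of 24 h from naive kidneys or from 4 h are linked across batches only by the untreated array of donor 5. It is the only array of 24 h in a batch with naive or 4 h arrays. Batch 4 holds only the CO array of donor 6, which then adds nothing to these differences. Within batch 2, the untreated kidney of donor 5 at 24 h differed from naive kidney 2 by 3.37 for NQO1, 2.35 for TXNRD1, 1.24 for ME1, -2.12 for CAT, -0.82 for GPX3 and -2.10 for MT1A. These values come from that same array and are no second check. No batch holds CO arrays of 24 h with naive arrays or with CO arrays of 4 h.

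In whole kidney RNA, fewer cells of a type and less RNA per cell cannot be told apart. The mean log2 level of 9 proximal tubule genes above the naive mean was -3.39 to -1.97 in CO kidneys and -4.56 to -2.88 in untreated kidneys at 24 h, and -2.05 to -0.61 and -1.13 to -0.27 in CO and untreated kidneys at 4 h. At 24 h, 8 of the 9 fell in CO kidneys and 9 of 9 fell in untreated kidneys against naive kidneys. Of all probe sets, 5.75% rose and 5.93% fell in CO kidneys at 24 h, and 6.79% and 7.77% in untreated kidneys. At 4 h these shares were 6.84% and 6.72% in CO kidneys and 0.942% and 0.563% in untreated kidneys. The counts of markers in this paragraph stand beside these shares, and the lists are too short to read small counts against them. Of 13 peroxisome genes, 4 and 5 fell in CO and untreated kidneys at 24 h and 0 rose. Of 10 macrophage and granulocyte genes, 3 and 5 rose in CO and untreated kidneys at 24 h, with a mean level above naive of 0.57 to 2.28 and 1.10 to 2.41. At 4 h that level was 0.52 to 0.88 in CO kidneys and 0.68 to 2.23 in untreated kidneys, where 0 and 1 of the 10 rose, with 1 and 8 at an unadjusted p under 0.05 in limma. Of 5 erythroid genes 0 passed the test in limma against naive kidneys at either time, 1 of them at an unadjusted p under 0.05 in untreated kidneys at 4 h. Of 6 fat genes 1 rose and 2 fell in CO kidneys and 2 fell in untreated kidneys at 24 h, and of 7 endothelial genes 1 rose in each. None of the listed markers lay below background on every array. Some were near it: AHSP exceeded it only on 1 untreated array at 4 h and ADIPOQ only on 1 CO array at 4 h. The group means of ITGAM, S100A8, S100A12 and HBE1 were 1.31 to 2.16, near the background of 1.61. The proximal tubule and peroxisome levels were below the naive mean at 24 h, when CAT, GPX3 and MT1A were lower than in naive kidneys. They were also below the naive mean on all arrays at 4 h, when CAT, GPX3 and MT1A overlapped naive kidneys. The mean peroxisome level at 4 h was -0.64 in CO and -0.53 in untreated kidneys, where 2 and 1 of the 13 fell. The macrophage and granulocyte level was above naive at 4 h and at 24 h. NQO1 was above naive at 24 h only. The part of these cell types in the results was not tested.

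Measures of RNA quality also differed between groups. The 3' minus 5' difference of the GAPDH control probe sets was 0.83 to 1.32 in CO kidneys and 0.97 to 1.12 in untreated kidneys at 24 h, 0.83 to 1.08 and 0.77 to 1.00 in CO and untreated kidneys at 4 h, and 0.73 and 0.85 in naive kidneys. For the actin control it was 0.06 to 0.41 in CO kidneys and -0.37 to 0.20 in untreated kidneys at 24 h, -0.24 to 0.24 and -0.26 to -0.02 at 4 h, and -0.51 and -0.15 in naive kidneys. For the IRP control it was 0.15 to 1.54 in CO kidneys and -1.40 to 1.55 in untreated kidneys at 24 h, -1.14 to 0.07 and -0.69 to 0.46 at 4 h, and -1.57 and -1.05 in naive kidneys. Thus CO kidneys at 24 h did not overlap naive kidneys in actin or IRP. Untreated kidneys did not overlap them in GAPDH at 24 h or in IRP at 4 h. The other 3 such controls overlapped the naive range in all 4 groups. Their part in the results was not tested. Array medians ranged from 3.75 to 3.94 over the 18 arrays, and the precision is set by the number of arrays, since an array gives no read counts.

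The question whether CO treatment moved these genes was tested between the CO and untreated groups, which hold the same donor numbers at each time. The fit compared group means without pairing donors, and fits with a donor block are given in the last section. A rule applied later, largest called change or else smallest p among pathway genes, picked only ME1 among these genes in these contrasts. All levels had been seen when the genes were chosen, so the adjusted p of the others is no independent test. Limma called 0 of 23999 probe sets, so the background was 0%, at 4 h (787 at an unadjusted p under 0.05), at 24 h (281), over both times (378) and for the difference of the CO effect between times (612). NQO1 differed between CO and untreated kidneys by 0.13 ± 0.31 at 4 h (95% interval -0.52 to 0.78, limma adjusted p = 0.999) and by -0.26 ± 0.31 at 24 h (-0.92 to 0.39, limma adjusted p = 0.9999). It was higher with CO in 2 of 4 donors at 4 h and in 2 of 4 at 24 h. Both intervals include 0 and end within 0.92 of it.

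TXNRD1 differed by 0.76 ± 0.47 at 4 h (-0.23 to 1.76, limma adjusted p = 0.999), and CO was higher in 3 of 4 donors. Donor 1 alone gave a difference of 3.23, and without its untreated array the group difference was 0.09. At 24 h TXNRD1 differed by -0.22 ± 0.47 (-1.22 to 0.78, limma adjusted p = 0.9999), with CO higher in 1 of 4 donors. The CO effect at 24 h minus that at 4 h was -0.98 ± 0.67 (limma adjusted p = 0.996).

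ME1 was the pathway gene of smallest p between CO and untreated kidneys at 4 h and over both times, so those values are a description with no p. CO kidneys were higher by 0.93 ± 0.35 at 4 h on the standing probe set, and in 4 of 4 donors, by 0.11 to 1.95. On the second probe set CO was also higher in 4 of 4 donors, by 0.80 and 0.33 in donors 3 and 4. In donors 1 and 2 its untreated level of 1.24 and 1.47 lay below background, so no size is given for them or for the group. The groups overlapped on the standing probe set, where the untreated kidney of donor 4 exceeded the CO kidneys of donors 1 and 3, and did not overlap on the second. Of all probe sets, 0.225% were higher by more than the standing one, a rank in the contrast that picked ME1 and so a description only. In the same contrast, the median difference was -1.23 for the 10 macrophage and granulocyte genes, 6 of them at an unadjusted p under 0.05 and 0 called by limma, and -0.58 for the 9 proximal tubule genes. Their part in the ME1 difference was not tested. Without the CO array of donor 2, the standing difference was 0.63. The untreated array of donor 1, which resembled the naive arrays over all probe sets, had the lowest untreated level at 4 h, 3.46. Donor 1 differed by 1.16 on the standing probe set. Within batch 1 the difference was 0.59 (3 against 3 arrays), and within batch 2 it was 1.95 (1 against 1). At 24 h ME1 differed by 0.11 ± 0.35 (-0.63 to 0.86, limma adjusted p = 0.9999), with CO higher in 2 of 4 donors.

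**Figure D4:**
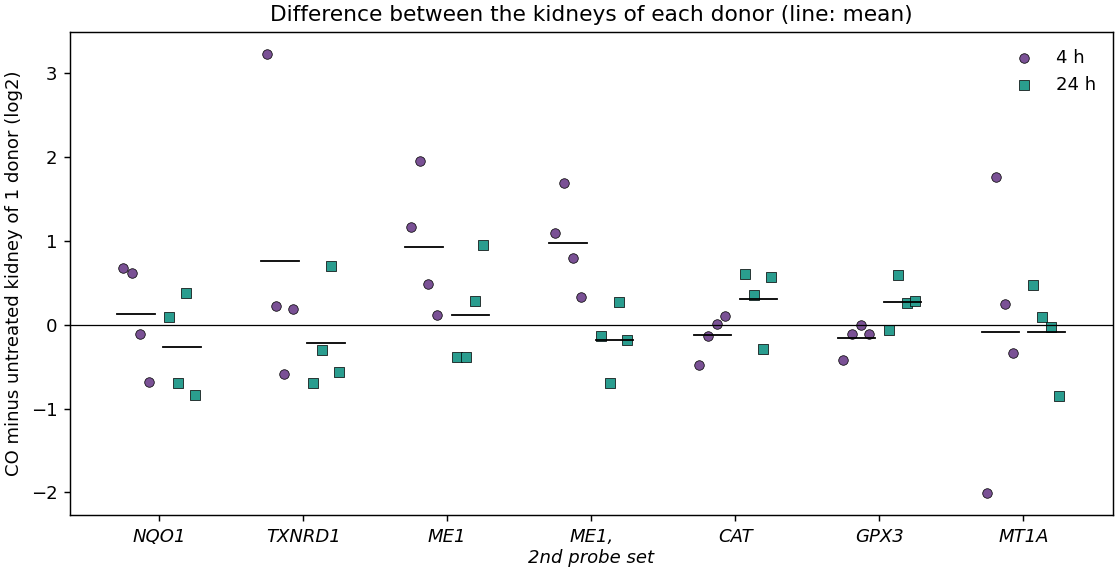
Level in the CO kidney minus the untreated kidney of the same donor number (y axis, log2) for each gene (x axis), with the mean as a line. Circles are the 4 donors of 4 h and squares the 4 donors of 24 h; ME1 lies above 0 in all 4 donors at 4 h on both probe sets, the untreated level of the second being below background in donors 1 and 2, and donor 1 gives the TXNRD1 point at 3.23.

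CAT differed between CO and untreated kidneys by -0.13 ± 0.29 at 4 h (-0.73 to 0.48, limma adjusted p = 0.999) and by 0.31 ± 0.29 at 24 h (-0.30 to 0.92, limma adjusted p = 0.9999). GPX3 differed by -0.16 ± 0.18 at 4 h (-0.54 to 0.22, limma adjusted p = 0.999) and by 0.27 ± 0.18 at 24 h (-0.11 to 0.65, limma adjusted p = 0.9999). Both stood higher with CO in 3 of 4 donors at 24 h, and at 4 h CAT was higher in 2 of 4 donors and GPX3 in 1 of 4. The CO effect at 24 h minus that at 4 h was 0.44 ± 0.41 for CAT and 0.43 ± 0.25 for GPX3, each with a limma adjusted p of 0.996. The mean of the proximal tubule genes above naive was -2.92 in CO kidneys and -3.64 in untreated kidneys at 24 h, and its part in these differences was not tested. MT1A differed by -0.08 ± 0.55 at either time (-1.25 to 1.08 at 4 h, limma adjusted p = 0.999, and -1.24 to 1.08 at 24 h, limma adjusted p = 0.9999), with CO higher in 2 of 4 donors each time.

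The members varied together in 2 ways. Over the 18 arrays, CAT correlated with GPX3 (r = 0.94) and MT1A (r = 0.82), GPX3 with MT1A (r = 0.83), and NQO1 ran against CAT (r = -0.88), GPX3 (r = -0.85) and MT1A (r = -0.62). TXNRD1 stood apart, with r = 0.09 to NQO1 and 0.53 to ME1. These are descriptions without a p-value, since the arrays share groups, batches and tissue makeup.

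Among 6759 other named genes, those most like NQO1 over the 18 arrays were POLR2H, a subunit of RNA polymerases (r = 0.98), PSMB6, a proteasome subunit (r = 0.97), and PIGU, of the machinery that attaches lipid anchors to proteins (r = 0.96). TXNRD1 was closest to FOSL1, an AP-1 transcription factor (r = 0.97), TNFRSF12A, the receptor of the cytokine TWEAK (r = 0.97), and FAM118B (r = 0.95). ME1 had weaker neighbours, POLD3 (r = 0.85), ESRP1 (r = 0.84) and EXT1 (r = 0.83). CAT was closest to EPHX2, the soluble epoxide hydrolase, ADHFE1 and UPB1 (r = 0.98 each). GPX3 was closest to AMN, the partner of cubilin in protein uptake, FOLR2 and FTCD (r = 0.97 each), and MT1A to ALDH2, the mitochondrial aldehyde dehydrogenase (r = 0.90), CYP2A19 (r = 0.90) and TMEM59 (r = 0.89).

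Of 122 genes listed for the NRF2 and antioxidant pathway by role, 82 were measured with a probe set of 1 symbol, 76 of them besides the 6. Against naive kidneys at 24 h, 4 rose and 19 fell in CO kidneys and 5 rose and 25 fell in untreated kidneys, so 25% and 32.9% fell, where 5.93% and 7.77% of all probe sets did. The shares that rose were 5.26% and 6.58%, where 5.75% and 6.79% of all probe sets rose. Each of the 76 is a named gene on its brightest probe set. All probe sets include dim ones and 13732 with no symbol, so the shares are not of like sets. At 4 h, 4 rose and 18 fell in CO kidneys, 5.26% and 23.7%, where 6.84% and 6.72% of all probe sets did. In untreated kidneys at 4 h limma called 0 of the 76, with 24 at an unadjusted p under 0.05. Of all probe sets, 0.942% were called higher and 0.563% lower there. The median difference of the 76 at 24 h was -0.24 in CO kidneys and -0.26 in untreated kidneys, beside -0.02 and 0.01 over all probe sets. With array batch as a block, 0 and 4 of the 76 were called at 24 h in CO and untreated kidneys. The share of all probe sets called with this block, or with an array left out, is not given. Without naive array 1 or 2, 7 or 10 were called at 24 h in CO kidneys and 16 or 17 in untreated kidneys, and 0 at 4 h in CO kidneys either way. Without CO donor 1 or 3, 7 or 14 were called at 4 h in CO kidneys. Without untreated donor 1, 14 were called at 4 h in untreated kidneys. The counts by role below stand beside the shares of all probe sets given above for the same contrast.

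**Figure D5:**
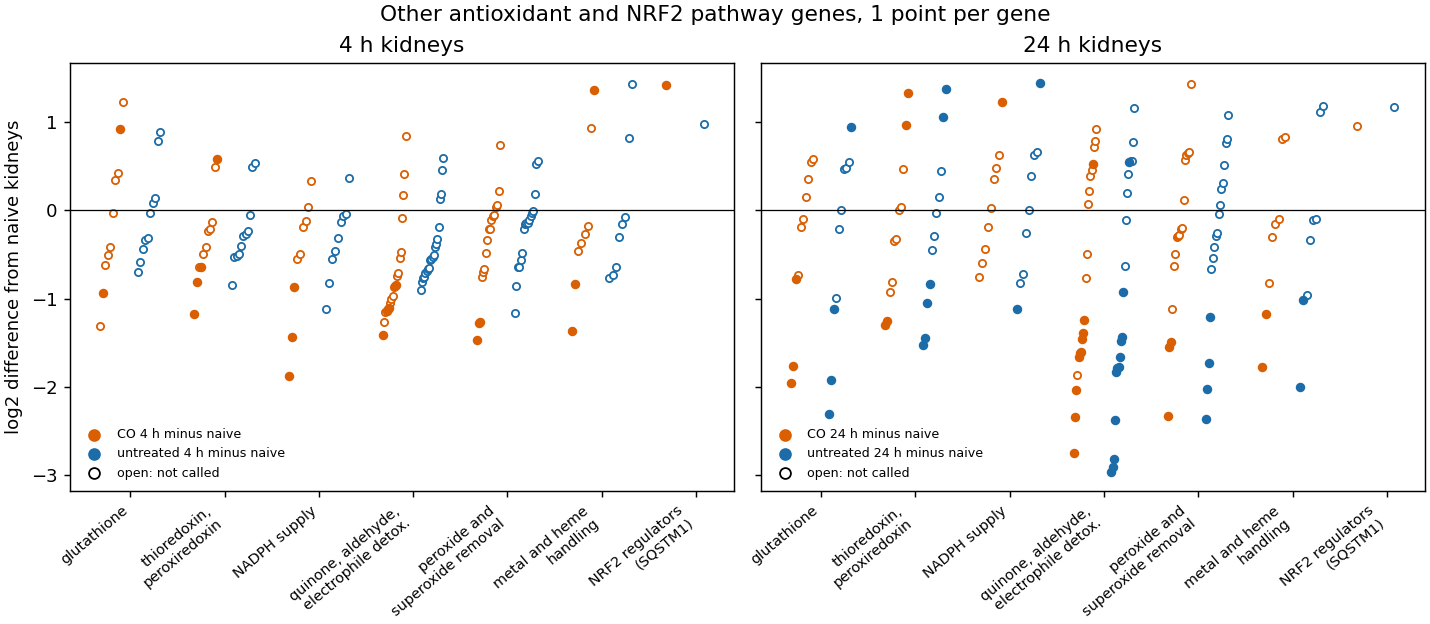
Difference from naive kidneys (y axis, log2) of the 76 other pathway genes by role (x axis), at 4 h and at 24 h. Each point is a gene, orange is CO and blue untreated, filled points passed limma's adjusted p under 0.05; of the 20 detoxification genes at 24 h, 9 fell in CO and 11 in untreated kidneys.

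Of the genes that set NRF2 itself, 1 of 10 listed was measured, SQSTM1, the autophagy adaptor that can draw KEAP1 away from NRF2. It rose by 1.42 ± 0.43 in CO kidneys at 4 h against naive kidneys (limma adjusted p = 0.0381). It differed by 0.98 in untreated kidneys at 4 h and by 0.95 and 1.17 in CO and untreated kidneys at 24 h, none of which passed. The test of the CO effect at 4 h gave 0.45 and did not pass.

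Beside NQO1, 20 other genes that disarm quinones, aldehydes and electrophiles were measured. At 24 h against naive kidneys, 1 rose and 9 fell in CO kidneys, and 1 rose and 11 fell in untreated kidneys, with 10 and 8 not called. GSTZ1, which acts in tyrosine breakdown, fell by 2.75 ± 0.38 in CO kidneys and by 2.96 ± 0.38 in untreated kidneys (limma adjusted p = 0.0006 and 0.000225). AKR7A2, an aldehyde reductase, fell by 2.34 ± 0.30 and by 2.82 ± 0.30. CBR1, a carbonyl reductase, fell by 2.91 ± 0.72 in untreated kidneys, and in CO kidneys its difference of -1.86 did not pass. The untreated levels of CBR1 at 24 h were 1.80 to 2.26, near the background of 1.61, so the size of its falls there is uncertain. NQO2, the closest relative of NQO1, fell by 1.39 in CO and by 1.66 in untreated kidneys at 24 h. Between times, CBR1 fell by 3.04 ± 0.59 in untreated kidneys at 24 h against 4 h, and EPHX2 fell by 1.29 ± 0.31 in CO kidneys. GSTA4, a glutathione transferase for lipid aldehydes, rose by 1.94 ± 0.36 at 24 h over 4 h in CO kidneys (limma adjusted p = 0.00212).

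The thioredoxin group beside TXNRD1 split. TXN, the thioredoxin that TXNRD1 reduces, rose by 0.97 ± 0.17 in CO kidneys and by 1.06 ± 0.17 in untreated kidneys at 24 h, and by 0.58 in CO kidneys at 4 h. PRDX1, a cytosolic peroxiredoxin and NRF2 target, rose by 1.33 ± 0.25 and by 1.38 ± 0.25 in CO and untreated kidneys at 24 h (limma adjusted p = 0.00398 and 0.00232). The mitochondrial PRDX3 fell by 1.30 and by 1.45, and PRDX5, of mitochondria and peroxisomes, fell by 1.26 and by 1.52. Of the 11 measured, 2 rose and 2 fell in CO kidneys and 2 rose and 4 fell in untreated kidneys.

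Among 9 other genes of NADPH supply, PGD, the second NADPH-making enzyme of the pentose phosphate pathway, rose by 1.22 ± 0.34 in CO kidneys and by 1.45 ± 0.34 in untreated kidneys at 24 h (limma adjusted p = 0.0279 and 0.00973). The other call at 24 h was MTHFD1 of folate metabolism, which fell by 1.12 in untreated kidneys. At 4 h in CO kidneys, when ME1 was highest, 3 of the 9 fell and 0 rose, IDH1 by 1.88 ± 0.47, MTHFD1 by 1.43 ± 0.34 and TKT by 0.87. Between times, 5 of the 9 rose in CO kidneys, with IDH1 at 1.44 ± 0.39 and PGD at 1.19, and 3 of the 9 rose in untreated kidneys.

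Of 10 genes of glutathione synthesis and recycling, 0 rose and 3 fell in CO kidneys and 1 rose and 3 fell in untreated kidneys at 24 h. GGT1, the brush-border enzyme that splits extracellular glutathione, fell by 1.76 and by 2.30 in CO and untreated kidneys, and ANPEP, a brush-border peptidase, fell by 1.96 and by 1.92. GLRX, a glutaredoxin, rose by 0.92 ± 0.22 in CO kidneys at 4 h (limma adjusted p = 0.0138). GCLM, the regulatory subunit of glutathione synthesis and a classic NRF2 target, differed by 1.23 in CO and 0.89 in untreated kidneys at 4 h without passing, and GCLC by 0.43 and -0.03.

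Beside CAT and GPX3, 17 other genes that remove peroxides and superoxide were measured, of which 0 rose and 3 fell in CO kidneys and 0 rose and 4 fell in untreated kidneys at 24 h. SELENBP1 fell by 2.32 ± 0.40 in CO kidneys and by 2.37 in untreated kidneys, and MSRA, which repairs oxidised methionine, by 1.54 and by 2.02. MSRB2, its mitochondrial counterpart, fell by 1.46 ± 0.30 in CO kidneys at 4 h (limma adjusted p = 0.00858), and in untreated kidneys at 4 h its difference of -1.16 did not pass (limma adjusted p = 0.0589). SOD1 and SOD2, the superoxide dismutases of cytosol and mitochondria, differed by -0.54 to 0.24 from naive kidneys in the 4 groups and were not called. Between times, GPX7 rose by 1.48 ± 0.44 in CO kidneys, and SELENOW by 1.00 ± 0.20 and MSRB3 by 0.88 ± 0.24 in untreated kidneys.

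Beside MT1A, 8 other genes of metal and heme handling were measured, of which 0 rose and 2 fell in CO and in untreated kidneys at 24 h, MT3 and HMOX2. MT3, a metallothionein, fell by 1.77 and by 2.00, and by 1.40 ± 0.26 between 24 h and 4 h in CO kidneys (limma adjusted p = 0.00189). HMOX1, the inducible heme oxygenase, rose by 1.36 ± 0.42 in CO kidneys at 4 h (limma adjusted p = 0.0417), and its difference of 1.43 in untreated kidneys at 4 h did not pass. The ferritin genes FTH1 and FTL differed from naive kidneys by -0.26 to -0.07 in the 4 groups and were not called.

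Between CO and untreated kidneys, limma called 0 of the 76 at 4 h, at 24 h, over both times and for the difference between times, with 6, 1, 0 and 7 at an unadjusted p under 0.05. The gene of smallest p besides ME1 was CBR1 at 4 h, with a difference of -1.39 ± 0.59 (limma adjusted p = 0.999), and GLRX at 24 h, with -0.39 ± 0.18. Over both times it was CBR3, with -0.15 ± 0.09, and for the difference between times AKR7A2, with 1.03 ± 0.34 (limma adjusted p = 0.996). CBR3 was dim, with means of 1.20 in naive kidneys and 1.66 in untreated kidneys at 4 h, around the background of 1.61. The median difference of the 76 between CO and untreated kidneys was -0.16 at 4 h and 0.04 at 24 h, beside 0.02 and 0.00 over all probe sets.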

How the data were processed

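RNA of pig kidneys was measured on 18 Affymetrix arrays. The deposited values are log2 summaries per probe set, normalised between arrays by the authors with RMA, per the submitters' processing notes; its version and settings are not given in the sources used here. The values ran from 0.226 to 13.46 with none missing. The 124 control probe sets were left out, and the other 23999 were tested without a filter. Genes were named from the platform annotation, and 198 probe sets with several symbols and 13732 with none stayed unnamed.

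Groups followed title and source. Numbers in the names of the naive arrays recur in those of donor 4, so these kidneys may come from the same animals. Groups were compared in limma 3.58.1 (R 4.3.3), two-sided, with lmFit and eBayes on 5 group means, and Benjamini-Hochberg adjusted p under 0.05 was called; the procedure was tested on simulated data. Errors after ± are standard errors unless SD is stated. The 6 genes, the pathway and marker lists and the tests were chosen with earlier results of these data known. From the pathway list, the text names in each comparison up to 3 rises and 3 falls of largest size, or the gene of smallest p where none passed. Other pathway genes with values in the text were chosen after their values were seen, because they are known NRF2 targets or relatives of the 6. For each of the 6 the 3 genes of highest r are named.

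Donor numbers pair CO and untreated kidneys in the labels. With group means removed, an array correlated best with its donor partner in 4 of 8 donors, with r from -0.20 to 0.57. Alternatives were a donor block, array batch as block, within-batch values, array weights, a filter on low probe sets, other normalisations, a trended robust variance, only the compared groups, any probe set of a gene, and leaving out each array.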

Additional observations from a re-analysis of the deposited data

Results flagged for a closer look

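ME1 on its standing probe set stood at 5.90 in the CO kidney of donor 2 at 4 h, while the other 3 CO kidneys at 4 h lay at 4.62 to 4.78, a gap that is 0.873 of the range of the group. The second ME1 probe set was also highest on that array, at 3.16.

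MT1A stood at 7.05 in the untreated kidney of donor 2 at 4 h, against 8.998 to 9.26 in the other 3 untreated kidneys at 4 h, a gap that is 0.883 of the range. These are 2 of 40 sets of 4 arrays examined for a lone array, and chance flags about 1 in 20.

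The probe set annotated to both MT1A and MT3, which is not counted among the 9 probe sets of the 6 genes, was at 4.65 or more on the 16 transplanted arrays and at 4.37 or less on the 2 naive arrays, while the MT1A probe set and the one standing for MT3 alone were lower in transplanted kidneys at 24 h. Which metallothionein transcripts any of these probe sets reads was not tested.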

How the results depend on the processing

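With the donor as a replicate block (random, or fixed over the 16 transplanted arrays), the 12 tested member values kept adjusted p of 0.964 to 0.9999, and no count of calls moved by over 1.5 times. Between CO and untreated kidneys some differences turned sign: NQO1 at 24 h was 0.0298 with array batch as a block, and with array weights ME1 at 24 h was -0.0893, MT1A at 4 h 0.0601 and MT1A at 24 h 0.0048. Leaving out 1 array, NQO1 at 4 h ranged from -0.10 to 0.31, ME1 at 24 h from -0.0805 to 0.433, CAT at 4 h from -0.289 to 0.0419, and MT1A from -0.60 to 0.40 at 4 h and from -0.37 to 0.33 at 24 h. None of these passed the test in any setting, and the cause was not tested. For NQO1 at 24 h the batch block leaves only batch 3, with CO donors 5, 7 and 8 against untreated donors 6, 7 and 8. The counts of calls that follow come without the share of all probe sets called in the same setting. Calls among the 6 were, with array batch as a block, 0 for CO and 1 for untreated kidneys at 24 h against naive, and 0 between times in both. Array weights gave 1 for untreated kidneys at 4 h against naive and 5 between times in CO kidneys, and only the compared groups gave 1 for CO kidneys at 4 h against naive, a smaller fit. Leaving out 1 array gave 0 to 2, 0 to 1, 1 to 4 and 3 to 5 calls for CO 4 h, untreated 4 h, CO 24 h and untreated 24 h against naive. Among the 76 other pathway genes, array batch as a block gave 0 for CO and 4 for untreated kidneys at 24 h against naive, and 0 between times in both. Array weights gave 39, 22 and 41 for CO 4 h, untreated 4 h and CO 24 h against naive and 39 between times in CO kidneys. Only the compared groups gave 12 for CO 4 h and centring each array 1 for untreated 4 h against naive. Leaving out 1 array gave 0 to 25, 0 to 14, 7 to 26 and 16 to 30 for CO 4 h, untreated 4 h, CO 24 h and untreated 24 h against naive, and 13 to 27 between times in untreated kidneys. Of the described member values, 21 moved by over 1 SD, all with array batch as a block, and 805 did not. With that block, values of 24 h against naive or 4 h are linked only by the untreated array of donor 5. The 2 naive arrays, with no spread of their own beyond a pair, limit every comparison with them.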
